A study of Mus musculus with 12 samples.

Results

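In the livers of dexamethasone-treated mice, signal was higher than in vehicle-treated mice for 7 genes that are best known from other organs: Fam107a, Tg, Gad2, Atp6v0a4, Pcsk1, Wfdc12 and Tff3. They were picked by name from the array's non-control probes because their signal in dexamethasone-treated liver stood far above a vehicle signal near or below the scanner's background. Together they are 7 of 19340 genes tested and are read by 11 of 28842 probes tested. Because the difference between dexamethasone and vehicle chose them, that difference is given for them as a description without a test, and their tests concern the sexes. That description does not hold for every gene: Wfdc12 was well above background on 5 of 6 vehicle arrays and Tff3 on 6 of 6, so neither was switched on from nothing.

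The 4 groups held 3 adrenalectomized C57BL/6 mice each, all 11 weeks old: females and males given dexamethasone (1 mg/kg, intraperitoneally) and females and males given vehicle, which was phosphate buffered saline. The females were in diestrus 1, and livers were taken 6 h after treatment. Total liver RNA was labelled with Cy3 and hybridized to single-colour Agilent arrays, 1 animal per array. Every animal lacked its adrenal glands, the vehicle animals included, so none of the groups represents an intact mouse.

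Dexamethasone is a synthetic agonist of the glucocorticoid receptor, a nuclear receptor that enters the nucleus once it binds hormone and acts on genes either by binding DNA or through other transcription factors. Adrenalectomy removes the main source of corticosterone, the natural hormone of the mouse, and so lowers the starting activity of that receptor. In the liver the receptor is best known for inducing enzymes of gluconeogenesis and amino acid breakdown. Glucocorticoid exposure and stress are also known to induce Fam107a in brain. The other genes are known mainly for their work elsewhere: thyroid hormone storage, neurotransmitter synthesis, acid secretion by the kidney, prohormone processing, and secretion at mucosal and other epithelial surfaces.

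Probes were placed on build mm7 by the array design, which lists Fam107a as BC055107 and Tg as Tgn. The probe of Fam107a lies at chr14:6106017-6106076 on the minus strand, that of Wfdc12 at chr2:163931049-163931108 on the minus strand and that of Tff3 at chr17:29320548-29320607 on the minus strand. Gad2 is read at chr2:22678524-22678583 by a probe designed on a cDNA clone that was matched to the gene only through a synonym, and at chr2:22675289-22675347 by a probe to its RefSeq transcript. Whether that clone belongs to the Gad2 transcript was not checked against a genome here. Atp6v0a4 is read at chr6:37979682-37979741 and at chr6:38018950-38019597, minus strand, and Pcsk1 at chr13:72145584-72145643 and at chr13:72112605-72119261, plus strand. For Atp6v0a4 the second site spans 648 bp and for Pcsk1 it spans 6657 bp, although the probes have 60 bases, so both cross at least 1 intron. Exon and untranslated-region annotation of mm7 was not used here.

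The probe sequences below are shown because they are what was measured: the pair for Tg carries the sex difference described later, Wfdc12 showed the next widest separation of the sexes, and the Pcsk1 and Atp6v0a4 probes are the ones that cross an intron. The Tg probes, at chr15:66934195-66934254 and chr15:66934175-66934234 on the plus strand, share 40 bases, written in capitals. They are therefore overlapping readings of the same stretch of the transcript and not independent.
Tg A_52_P117408: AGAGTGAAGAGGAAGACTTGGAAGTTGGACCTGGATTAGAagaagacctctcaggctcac
Tg A_52_P590168: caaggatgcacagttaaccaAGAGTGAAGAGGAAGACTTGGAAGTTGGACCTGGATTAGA
Wfdc12 A_51_P487073: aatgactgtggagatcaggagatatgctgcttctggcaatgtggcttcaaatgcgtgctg
Pcsk1 A_52_P164524: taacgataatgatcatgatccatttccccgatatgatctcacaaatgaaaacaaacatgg
Atp6v0a4 A_52_P412167: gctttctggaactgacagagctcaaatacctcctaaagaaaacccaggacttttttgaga

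Levels below are log2 signals relative to the 75th percentile of the same array, so that a value of 0 marks the upper quartile of all spots, and they are listed for arrays 1, 2 and 3 of a group in that order. That quartile was 578.2 to 1251 intensity units, and the flag by which the scanner software calls a spot well above background was set for 65.1 to 71.8% of probes. No spot of the 11 probes was saturated. All 8 hepatocyte markers listed for the check of the tissue, among them Alb and Ttr, were above background on all 12 arrays. The arrays lay on 3 slides, and only slide 1 held dexamethasone arrays of both sexes. On every slide male arrays sat at lower positions than female arrays, and within a sex vehicle arrays sat below dexamethasone arrays, so position cannot be told apart from sex or treatment. The RNA came from whole liver, in which more RNA per cell and more cells of a type cannot be told apart.

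Fam107a, which encodes an actin-associated protein best studied in brain, had the largest bound. Its level was 1.83, 2.16 and 3.33 on the female dexamethasone arrays and 3.44, 3.96 and 1.22 on the male ones. On vehicle arrays it was -8.40, -7.02 and -7.23 in females and -9.00, -8.79 and -8.08 in males. Not one vehicle array was well above background, whereas all 6 dexamethasone arrays lay above the upper quartile of their array. Against the lowest signals that the scanner software called above background, the difference was at least 477-fold in females and at least 766-fold in males. The male bound was 526-fold without male dexamethasone array 2 and 1360-fold without male dexamethasone array 3. The female bound was 351-fold without female dexamethasone array 3 and 589-fold without female dexamethasone array 1. Where such a bound is given, the mean of the brighter group is set against a mean over the dimmer group's arrays, each taken at its lowest signal well above background or at the probe's own value if higher.

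Tg encodes thyroglobulin, the protein from which the thyroid gland makes its hormones. Its level was -5.05, -4.72 and -4.60 on female dexamethasone arrays and -0.61, -0.12 and -0.55 on male ones. Vehicle arrays read -8.07, -8.45 and -7.81 in females and -7.47, -7.59 and -7.87 in males, all below background. The 3 arrays of each dexamethasone group lay close together, and the sexes did not overlap. The bound was at least 3.18-fold in females and at least 77.8-fold in males.

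Pcsk1 encodes proprotein convertase 1/3, which cleaves prohormones such as proinsulin in endocrine cells. Its brighter probe read -6.71, -6.57 and -4.14 on female dexamethasone arrays and -3.81, -3.41 and -3.16 on male ones. Vehicle arrays read -8.68, -8.89 and -8.64 in females and -8.96, -8.92 and -9.00 in males. All vehicle arrays were below background, and female dexamethasone array 3 stood well above the other two but below every male dexamethasone array. The difference was at least 1.57-fold in females and at least 9.52-fold in males. The female bound rests on array 3: without it the ratio to the floor was 0.881, which gives no bound.

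Gad2 encodes glutamate decarboxylase 65, which makes the neurotransmitter GABA in neurons and is also found in pancreatic islets. Its brighter probe, the one matched through a synonym, read -4.43, -3.90 and -3.38 on female dexamethasone arrays and -1.34, -2.75 and -1.81 on male ones. Vehicle arrays read -8.37, -8.91 and -8.60 in females and -8.73, -8.89 and -8.98 in males, again with none above background. The highest female dexamethasone array stayed below the lowest male one. On that probe the difference was at least 5.86-fold in females and at least 26.7-fold in males, and on the RefSeq probe at least 1.78-fold and at least 5.34-fold.

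Atp6v0a4 encodes an a subunit of the vacuolar proton pump, used by acid-secreting cells of the kidney and inner ear. Its brighter probe read -2.05, -3.15 and -3.44 on female dexamethasone arrays and -2.71, -2.44 and -0.53 on male ones. Vehicle arrays read -8.43, -8.49 and -8.51 in females and -8.74, -8.71 and -7.99 in males, with none above background. Here the sexes overlapped under dexamethasone. The bound was at least 11.9-fold in females and at least 28.1-fold in males, or 17.5-fold without male dexamethasone array 3.

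Wfdc12 encodes a small secreted protein with a WAP domain, a fold found in several protease inhibitors. It read -4.55, -3.80 and -2.23 on female dexamethasone arrays and 2.29, 1.52 and -0.28 on male ones. Vehicle arrays read -3.55, -7.09 and -5.49 in females and -5.55, -4.44 and -4.53 in males, and only female vehicle array 2 was not well above background. In females the highest vehicle array lay above 2 of the 3 dexamethasone arrays, whereas in males the groups did not overlap. The difference of means was 3.61-fold in females, with the dim female vehicle array 2 taken as read, and 64.9-fold in males. In females it ranged with single arrays, at 1.99-fold without vehicle array 2, 6.81-fold without vehicle array 1 and 2.3-fold without dexamethasone array 3. In males it was 107-fold without dexamethasone array 3 and 44.1-fold without dexamethasone array 1. Within slide 2, the female dexamethasone arrays exceeded the female vehicle array by 0.16, against 3.29 within slide 1.

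Tff3 encodes trefoil factor 3, a peptide that goblet cells secrete to protect the intestinal lining. It read -0.15, -0.83 and 2.26 on female dexamethasone arrays and 3.08, 3.90 and 2.59 on male ones. Vehicle arrays read -4.57, -5.56 and -4.86 in females and -0.74, -0.76 and -0.92 in males, each well above background. Male vehicle livers thus already carried Tff3 signal in the range of female dexamethasone arrays 1 and 2. The measured difference between dexamethasone and vehicle was 42.9-fold in females and 15.9-fold in males. The female value was 22.7-fold without dexamethasone array 3 and 66.3-fold without dexamethasone array 2.

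**Figure D1:**
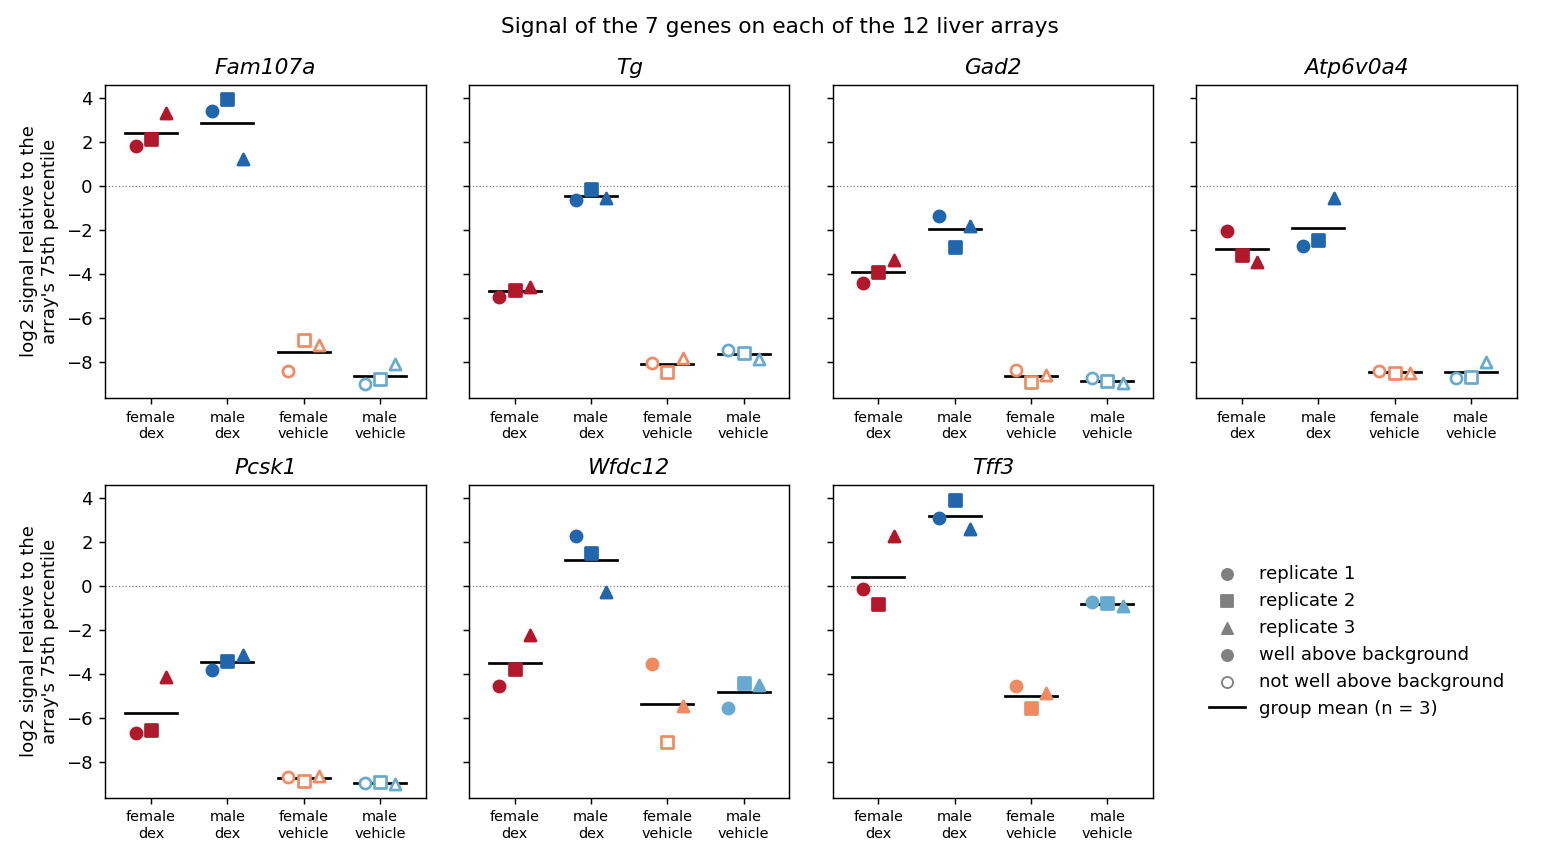
Each panel plots 1 gene, with the log2 signal relative to the array's 75th percentile on the vertical axis and the 4 groups on the horizontal axis, 1 point per array. Filled points were well above background and open points were not, the point shape gives the replicate, and black lines are group means (n = 3). Vehicle points of Fam107a, Tg, Gad2, Atp6v0a4 and Pcsk1 are all open, while those of Tff3 are all filled.

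The first comparison that the choice did not rest on directly asked whether the level reached under dexamethasone differed between females and males, although the genes were picked with the results of both sexes known. All 7 means were lower in females, and 5 of the 7 genes passed as lower in females, where 2.53% of all genes passed as lower. Tg was lower by the widest margin relative to its error, at -4.36 ± 0.21 (SE, n = 3 and 3, limma adjusted p = 1.44e-06), which is a 20.6-fold higher mean in males. Wfdc12 differed by -4.70 ± 0.92 (adjusted p = 0.0162), 26-fold in favour of males, and Gad2 by -1.94 ± 0.34 (adjusted p = 0.0106), 3.83-fold. Pcsk1 differed by -2.35 ± 0.53 (adjusted p = 0.0311), 5.1-fold, and Tff3 by -2.76 ± 0.65 (adjusted p = 0.0358), 6.78-fold.

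The same 5 genes had every female dexamethasone array below every male one, a separation that 14.8% of all genes showed in that direction. The gap between the highest female and the lowest male array was 3.99 for Tg and 1.95 for Wfdc12, but only 0.63 for Gad2, 0.33 for Pcsk1 and 0.32 for Tff3. The upper quartile used for scaling was 578.2 to 787.8 on male and 842 to 909.9 on female dexamethasone arrays. In intensity units before scaling, Tff3 overlapped, at 4273 on female array 3 and 4035 on male array 3. The closest female and male arrays nearly touched for Gad2 (85.4 against 85.79) and Pcsk1 (50.43 against 54.59). The small gaps of Gad2, Pcsk1 and Tff3 thus depend on the scaling. Fam107a (-0.43 ± 0.67, adjusted p = 0.739) and Atp6v0a4 (-0.99 ± 0.53, adjusted p = 0.3) did not pass. Their 95% intervals ran from -1.92 to 1.05 and from -2.15 to 0.18, so a sex difference of more than 2-fold in favour of males lies inside both. The interval of Fam107a also holds a difference of more than 2-fold in favour of females.

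The calls differed in how firmly they stood. Each fit that left out 1 of the 12 arrays kept the call of Tg (highest adjusted p = 2.07e-05) and of Gad2 (highest 0.0446). Pcsk1 kept its call in 7 of these 12 fits and lost it without any of male dexamethasone arrays 1, 2 or 3 or female dexamethasone arrays 1 or 2 (adjusted p up to 0.106). Wfdc12 kept it in 8 of 12 and lost it without male dexamethasone arrays 1 or 2 or female dexamethasone arrays 1 or 2 (up to 0.0678). Tff3 kept it in 4 of 12, losing it without any male array, vehicle or dexamethasone, and without female dexamethasone arrays 1 or 2 (up to 0.12). In the fits without a vehicle array the difference itself could not change, only its error and adjusted p. Those fits are therefore a weaker check than the ones without a dexamethasone array. With slide as a block, Tg passed, whereas Gad2 (adjusted p = 0.0861), Pcsk1 (0.134), Wfdc12 (0.0562) and Tff3 (0.0963) did not. Fitted on the dexamethasone arrays alone, Gad2 (adjusted p = 0.0686), Pcsk1 (0.132) and Tff3 (0.133) did not pass, while Tg and Wfdc12 did. After normexp background correction none of the 5 passed, with adjusted p of 0.0801 for Tg, 0.107 for Wfdc12, 0.11 for Tff3, 0.903 for Gad2 and 0.998 for Pcsk1. Within slide 1, with 1 dexamethasone array of each sex, the difference between the female and the male array was -4.60 for Tg, -5.32 for Wfdc12, -4.73 for Tff3, -3.16 for Pcsk1, -1.15 for Gad2, -1.80 for Fam107a and -0.71 for Atp6v0a4.

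The second comparison asked whether the effect of dexamethasone itself differed between the sexes, as the female effect minus the male effect. Tg gave -3.90 ± 0.29 (SE, limma adjusted p = 0.00112), with a 95% interval of -4.55 to -3.25, and was the only gene of all 19340 to pass (0.00517%). The fitted effects behind it were 3.32 ± 0.21 in females and 7.22 ± 0.21 in males. The call rests on readings of vehicle arrays that were all below background, so its size is no measured fold and depends on how those dim spots are read, while the dexamethasone levels of both sexes were measured above background. It was kept without any single array (adjusted p from 0.0012 to 0.00911). It was lost for the mean of the probe pair (-3.64, adjusted p = 0.0975), for the other probe alone (-3.39, adjusted p = 0.324), which read 1 male vehicle array above background, and after normexp background correction (-2.19, adjusted p = 1).

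No other gene of the 7 passed this test of the difference, so a sex difference in effect size was not established for them. Gad2 gave -2.18 ± 0.49 (adjusted p = 0.475), Pcsk1 -2.57 ± 0.76 (adjusted p = 0.692) and Wfdc12 -4.17 ± 1.30 (adjusted p = 0.729). Without female dexamethasone array 3, Pcsk1 gave -3.41 and passed (adjusted p = 0.00115), and with no filter on dim probes Gad2 passed (adjusted p = 0.0299). The Gad2 and Pcsk1 vehicle readings behind these values were below background. In the fit with no filter 2278 genes passed, 2194 of them with a negative difference, so the Gad2 call there is not particular to Gad2. Fam107a gave -1.51 ± 0.95, Atp6v0a4 -0.99 ± 0.74 and Tff3 1.43 ± 0.93, each with an adjusted p of 1. Tff3 alone had the larger fitted effect in females.

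**Figure D2:**
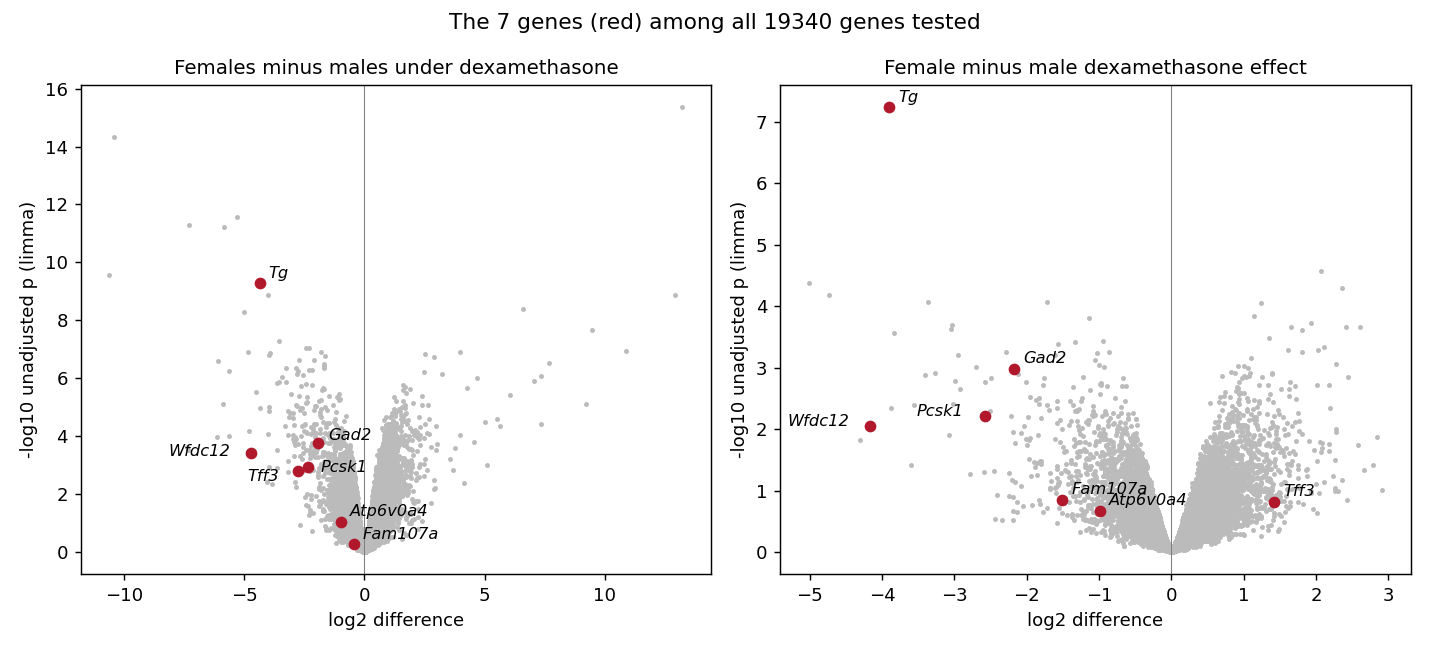
Each grey point is 1 of the 19340 genes tested and the 7 genes are red, with the log2 difference on the horizontal axis and minus log10 of the unadjusted limma p on the vertical axis. On the left, females minus males under dexamethasone, all 7 genes lie left of 0; on the right, the female minus the male effect of dexamethasone, Tg stands above every other gene at -3.90.

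Under vehicle, 1 of the 7 genes passed as lower in females, where 1.31% of all genes did. That gene was Tff3, at -4.19 ± 0.65 (SE, n = 3 and 3, limma adjusted p = 0.00843), an 18.2-fold higher mean in males. Its vehicle arrays did not overlap, and the difference was negative within each of the 3 slides, at -4.82, -3.65 and -4.09. The call was kept without any single array (highest adjusted p = 0.0447). Wfdc12, the other gene with measurable vehicle signal, differed by -0.54 ± 0.92 (adjusted p = 0.854), and its 3 female vehicle arrays spanned a wider range than the 3 male ones. The remaining 5 genes were below background in both sexes on the probe used, so no fold is given for them.

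Tff3 was thus lower in females under both treatments, whereas Tg, Gad2 and Pcsk1 separated the sexes under dexamethasone on scaled signal. On the probe used, Tg, Gad2 and Pcsk1 were below background in both sexes under vehicle. The gaps of Gad2, Pcsk1 and Tff3 under dexamethasone were small and depended on the scaling. The change of the sex difference between treatments passed a test for Tg and not for Tff3, Gad2, Pcsk1 or Wfdc12. Under dexamethasone, Fam107a averaged 2.44 ± 0.79 in females and 2.88 ± 1.45 in males (SD, n = 3 each) and did not separate the sexes. Tff3 averaged 0.43 ± 1.63 in females and 3.19 ± 0.66 in males and separated them only after scaling.

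Genes with a pair of probes were compared probe by probe, for the order and separation of the groups, since each probe has its own brightness. On both Tg probes the sexes separated under dexamethasone: the second read -5.56, -5.16 and -4.92 on female and -0.82, -0.34 and -0.79 on male dexamethasone arrays, and females minus males was -4.57 ± 0.45 (limma adjusted p over all probes = 0.000369). On vehicle arrays that probe read -7.63, -8.94 and -8.61 in females and -6.44, -6.89 and -8.31 in males. Only male vehicle array 1 was well above background there, so neither a bound nor a fold is given for males. For females the second probe gave at least 2.37-fold.

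The 2 Atp6v0a4 probes, one of which crosses an intron, gave the same order of groups. The second read -2.12, -2.96 and -3.99 on female and -3.11, -2.16 and -0.71 on male dexamethasone arrays, with bounds of at least 10.8-fold in females and at least 26.2-fold in males. For this gene the order of the dexamethasone arrays was the same on both probes in females and in males.

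The 2 Gad2 probes had the same order of groups but not the same size. They disagreed on the order of the male dexamethasone arrays: array 1 was highest on the probe matched through a synonym and lowest on the other. The probe to the RefSeq transcript read -6.21, -5.35 and -5.31 on female and -4.86, -4.18 and -3.83 on male dexamethasone arrays. Its sex difference under dexamethasone was -1.33 ± 0.33 (adjusted p over all probes = 0.0456). The sexes did not overlap on either probe.

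The 2 Pcsk1 probes disagreed in females. The probe that crosses an intron read -7.58, -8.36 and -6.78 on the female dexamethasone arrays, none of them above background, and -5.77, -5.68 and -5.83 on the male ones, all above it. It therefore gives no sign of Pcsk1 above background in females, at least 1.93-fold in males, and a male level at least 2.21-fold above the female one under dexamethasone (sex difference -1.81 ± 0.54, adjusted p over all probes = 0.0827). This probe was above background in no other group and entered the test only through the male dexamethasone arrays. A higher male level was thus favoured by its entry, and the p-value is no independent support for a sex difference.

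**Figure D3:**
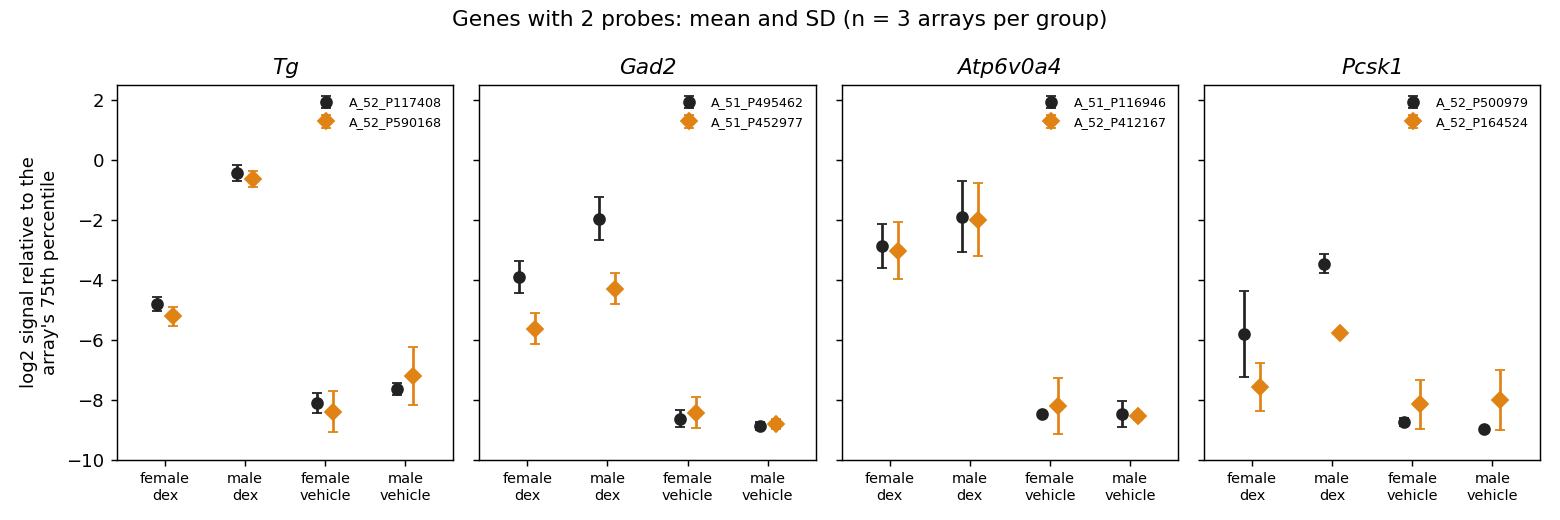
Points are group means and bars are SD over 3 arrays of the log2 signal relative to the array's 75th percentile, for the 4 genes with 2 probes, the brighter probe in black and the other in orange. On both probes of each gene the mean is lower in dexamethasone females than in dexamethasone males, and both of those means lie above vehicle.

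The 7 genes did not move as 1 block among animals of a group. Female dexamethasone array 3 had the highest level of 6 of the 7 genes among the 3 female dexamethasone arrays, the exception being Atp6v0a4, which was lowest there. Male dexamethasone array 3 had the lowest level of Fam107a, Wfdc12 and Tff3 and the highest of Atp6v0a4 and Pcsk1. Over the 6 dexamethasone arrays, after each sex's mean was removed, deviations of Atp6v0a4 ran opposite to those of Fam107a (Pearson r = -0.92) and of Wfdc12 (r = -0.93), and those of Fam107a and Wfdc12 ran together (r = 0.90). Pcsk1 and Tff3 had r = 0.85, and Tg and Gad2 had r = -0.22. The Gad2 value rests on the probe matched through a synonym, whose order of male dexamethasone arrays the other Gad2 probe did not share. These values describe 6 arrays, were read from 21 pairs of genes and carry no test; on each array all genes share its labelling, slide and scaling.

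**Figure D4:**
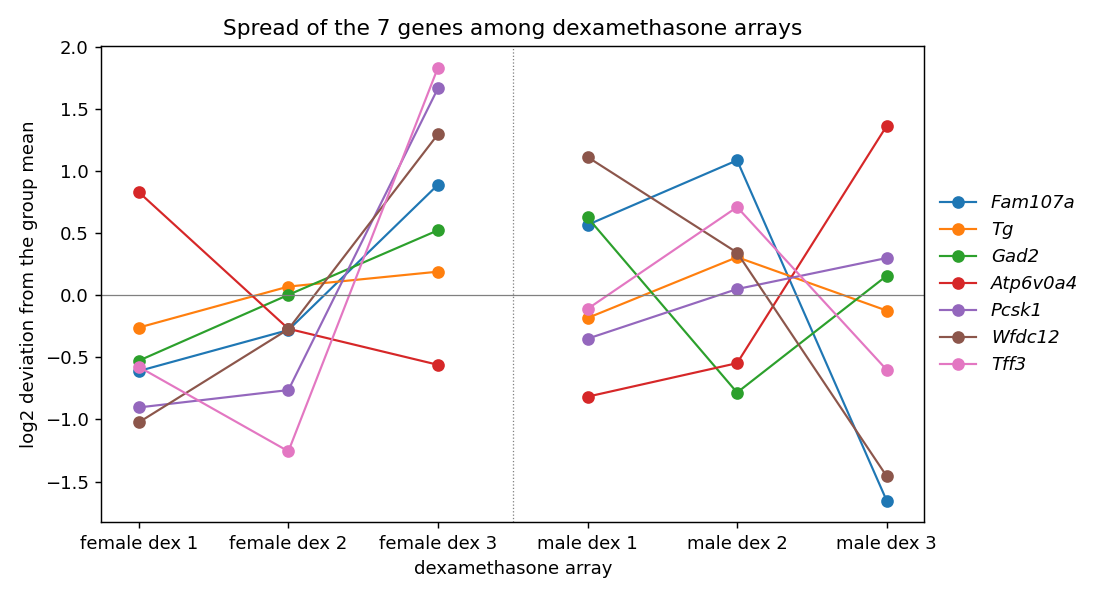
Lines join the log2 deviation of each gene from the mean of its own group on the 3 female (left) and the 3 male (right) dexamethasone arrays. On female dexamethasone array 3 and male dexamethasone array 3, Atp6v0a4 deviates in the opposite direction to Fam107a and Wfdc12.

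To place the 7 genes among all others, each of the 27635 genes on the array was classed by that flag. Only 22 genes had a probe well above background on all 6 dexamethasone arrays and no probe above it on any of the 6 vehicle arrays, and 3 genes showed the reverse. Of the 7 genes, 4 were in the class of 22: Fam107a, Gad2, Atp6v0a4 and Pcsk1. Tg was left out by its second probe, which was above background on male vehicle array 1. Since the class and the choice of the genes rest on the same contrast, this count is a description. The class grew to 71 genes, Tg among them, and the reverse class to 32 when 1 exception was allowed in each treatment.

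Ordered by the smaller of the female and male bounds, Fam107a came first at 477-fold, far above the next gene. E230001N04Rik followed (at least 12.7-fold in females and 33.6-fold in males), then Atp6v0a4 and Gad2. Slco4c1, an organic anion transporter known from the kidney, came next with 4.67-fold in females and 8.35-fold in males, then Cd28, a costimulatory receptor of T cells, with 4.14-fold and 11.1-fold in the same order. Zdhhc25 (2.94-fold and 11.6-fold), Fcamr (2.89-fold and 4.34-fold), Lancl3 (2.4-fold and 4.23-fold) and Myrip (2.21-fold and 2.67-fold) completed the first 10. Pcsk1 was in place 18 of 22, because of its low female level. In 19 of the 22 genes the male bound was the larger one, but the rule itself leaned that way. The lowest signal called above background was -6.43 to -6.04 on male and -7.04 to -6.88 on female dexamethasone arrays. A gene thus needed a higher level in males to enter the class. The mean vehicle floor, for example for Fam107a, was -6.71 in males and -6.46 in females, which raises male bounds. The count is therefore no evidence of a sex difference.

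**Figure D5:**
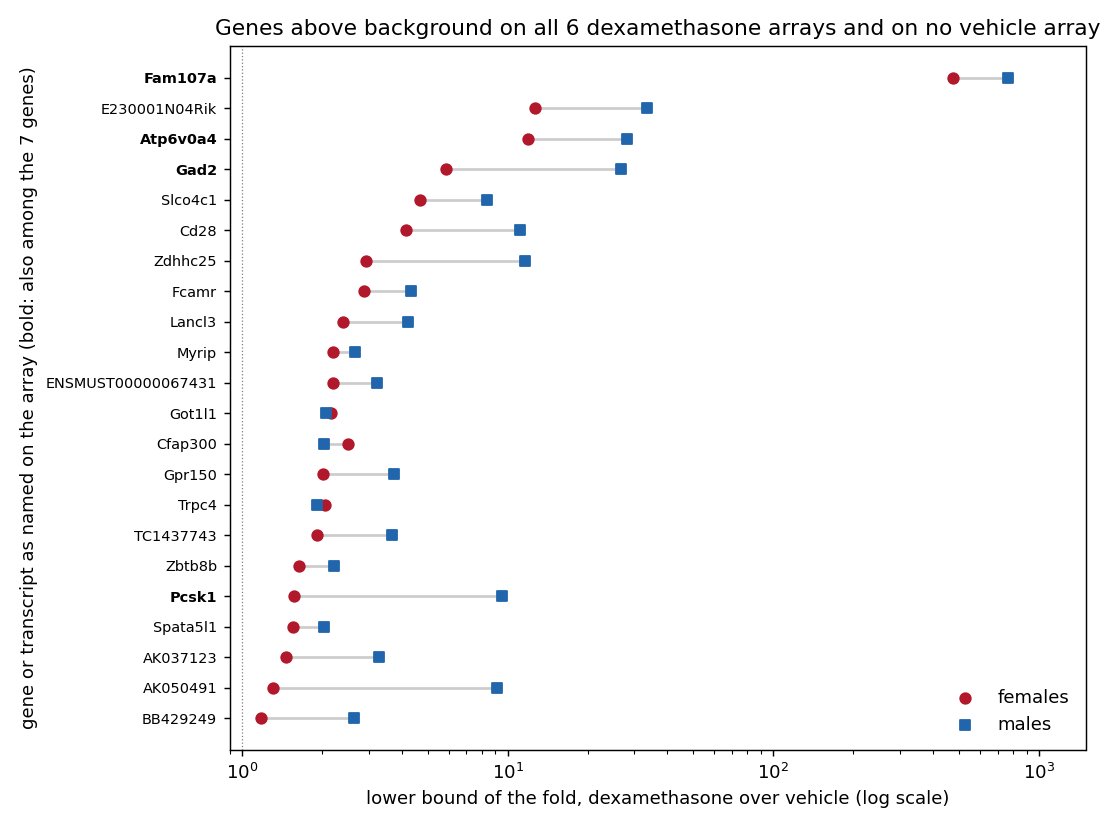
Each row is 1 of the 22 genes that were above background on all 6 dexamethasone arrays and on no vehicle array, with the lower bound of the fold on a log axis, red circles for females and blue squares for males. Fam107a, at 477 and 766, lies apart from the rest.

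The genes whose pattern over the 12 arrays was most like each of the 7 were named by Pearson correlation of log2 scaled signal, as a description without a test. The 12 arrays fall into a dexamethasone and a vehicle set, which dominates every such value. For Fam107a they were Med1, a subunit of the Mediator complex (r = 0.990), Sult1e1, an estrogen sulfotransferase (0.989), and Aass, an enzyme of lysine breakdown (0.989). For Tg they were the kinase gene Nek7 (0.981), Dph5 (0.979) and the histone demethylase gene Phf8 (0.978). Nek7 and Phf8 were above background on all 12 arrays. Under dexamethasone, females minus males was -1.13 for Nek7 and -1.82 for Phf8, where Tg was at -4.36. Both were named for their likeness to Tg, so that direction was favoured by the choice and is no separate support. For Pcsk1 they were the stress-response gene Gadd45b (0.985), Dgki (0.977) and Ccdc115 (0.976).

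Cd28 was among the 3 nearest genes of both Gad2 (0.976) and Atp6v0a4 (0.979). The others were Cdc37l1 (0.979) and Tmem62 (0.975) for Gad2, and Mfap1a (0.986) and Cntfr (0.979) for Atp6v0a4. Wfdc12 had the least close neighbours, Zfp105 (0.951), 4930455C13Rik (0.949) and Cul5 (0.948), and Tff3 had Atg16l2 (0.970), Acsm3 (0.967) and Sephs2 (0.965). A like pattern did not mean a like size. Under dexamethasone Med1 was higher by 0.68 in females and by 0.67 in males. Sult1e1 was higher by 8.27 and 7.96, and Fam107a itself by at least 8.90 and at least 9.58.

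Genes that work with the 7 in their usual tissues were counted next, and across all genes 6.79% rose and 6.88% fell in females and 10.4% rose and 12.1% fell in males. Of 9 tested genes of thyroid hormone synthesis and handling other than Tg, 0 rose in females and 1 rose in males, and 2 fell in each sex. The one that rose was Dio2, which activates thyroid hormone (3.44 ± 1.12, limma adjusted p = 0.0675 in females, and 3.61 ± 1.12, adjusted p = 0.0413 in males), though 5 of its 6 vehicle arrays were below background. Those that fell were Slc26a4, the anion exchanger pendrin (-2.17 ± 0.34, adjusted p = 0.00327 in females, and -1.83 ± 0.34, adjusted p = 0.00412 in males), and the deiodinase gene Dio1 (-0.79 ± 0.19, adjusted p = 0.0211 in females, and -1.0 ± 0.19, adjusted p = 0.00452 in males). At an unadjusted p under 0.05, 3 of the 9 passed in females and 4 in males.

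Of 6 markers of thyroid follicular cells, 0 were above background on all 6 dexamethasone arrays, and Tshr, Nkx2-1 and Foxe1, which encode the receptor for thyrotropin and 2 transcription factors that define the gland, were below background on all 12 arrays. The summed marker signal was 0.0249 to 0.049 times the upper quartile on dexamethasone arrays and 0.0207 to 0.0509 on vehicle arrays, so the treatments overlapped. These dim markers did not reach the limma test.

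For Gad2, 0 of 6 tested genes of GABA synthesis, transport and breakdown passed in either sex by limma, with 0 at an unadjusted p under 0.05. Gad1, which encodes the sister enzyme, was below background on all 12 arrays. Of 8 neuron markers, Stmn2, a microtubule regulator, rose in both sexes (3.78 ± 0.91, adjusted p = 0.021 in females, and 4.86 ± 0.91, adjusted p = 0.00422 in males), with 4 of its 6 vehicle arrays below background, the other 4 tested did not pass, and the neurofilament gene Nefl was below background everywhere. The summed neuron signal was 1.1 to 2.51 times the upper quartile under dexamethasone and 0.997 to 1.93 under vehicle. Of 8 pancreatic islet markers 4 were tested and 0 passed (1 in each sex at an unadjusted p under 0.05), and their sum was 0.133 to 0.766 under dexamethasone and 0.0875 to 0.192 under vehicle. How far neurons or islet cells contributed to Gad2 was not tested.

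For Pcsk1, the other convertases moved in both directions. Of 9 tested, 3 rose and 2 fell in each sex. Furin, a convertase of most cells, rose by 0.86 ± 0.16 in females (limma adjusted p = 0.00803) and 0.88 ± 0.16 in males (adjusted p = 0.00413), and Pcsk5 and Pcsk7 rose as well. Pcsk4 fell by 0.68 ± 0.20 in females (adjusted p = 0.0477) and was at -1.14 ± 0.20 in males (adjusted p = 0.00326). The partner of the related enzyme Pcsk2, Scg5, was below background on every array. Of 5 neuroendocrine markers tested 0 passed (2 in females and 0 in males at an unadjusted p under 0.05), Scg2 was below background throughout, and the summed signal of the list was 0.15 to 0.284 under dexamethasone and 0.0787 to 0.228 under vehicle.

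For Atp6v0a4, few other parts of the proton pump passed. Of 21 other subunits and accessory proteins tested, 0 rose and 1 fell in females (3 at an unadjusted p under 0.05) and 2 rose and 1 fell in males. In males the isoform gene Atp6v0a1 rose by 0.39 ± 0.10 (adjusted p = 0.0192) and Atp6v1g1 by 0.63 ± 0.14 (adjusted p = 0.011), while the d subunit gene Atp6v0d2 fell (adjusted p = 0.0145). In females Atp6v0e2 fell by 0.72 ± 0.20 (adjusted p = 0.0402). All 3 male dexamethasone arrays were below background for Atp6v0d2, so its level in them was at least 2.29-fold below male vehicle and at least 11.1-fold below female dexamethasone arrays (adjusted p = 0.00373). Females were higher under vehicle too, at -0.33, -2.65 and -0.57 against -3.55, -5.88 and -5.82 in males (adjusted p = 0.0302). Foxi1, the transcription factor that defines acid-secreting intercalated cells of the kidney, and Atp6v1g3 were below background on all 12 arrays, and the summed intercalated-cell signal was 7.72 to 11 under dexamethasone and 9.49 to 11.8 under vehicle.

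For Wfdc12, 10 other WAP domain genes were tested, and 1 rose and 1 fell in each sex. Wfdc21 rose by 0.45 ± 0.13 in females (adjusted p = 0.0438) and 0.55 ± 0.13 in males (adjusted p = 0.0122), and Wfdc18 was at -1.55 ± 0.37 in females (adjusted p = 0.0198) and -1.26 ± 0.37 in males (adjusted p = 0.0329). For Tff3, the other trefoil genes did not pass in either sex by limma (0 of 2, and 0 at an unadjusted p under 0.05): Tff1 was at -0.06 ± 0.39 in females and 0.30 ± 0.39 in males, and Tff2 at -0.43 ± 0.56 and -0.23 ± 0.56. The goblet cell genes Muc2, the main intestinal mucin, and Agr2 were below background on all arrays, and Spdef, a transcription factor of secretory cells, fell in females (-2.81 ± 0.69, adjusted p = 0.0234) and was at -2.04 ± 0.69 in males (adjusted p = 0.0568), with 1 of 6 dexamethasone arrays above background against 6 of 6 vehicle arrays. Of the 2 goblet markers tested, 0 rose and 1 fell in females and 0 passed in males (1 at an unadjusted p under 0.05). The summed goblet signal was 0.0366 to 0.0808 under dexamethasone and 0.0431 to 0.143 under vehicle. Cholangiocyte markers, the bile duct cells that the liver itself holds, summed to 7.65 to 47.6 under dexamethasone and 12.4 to 36.1 under vehicle, and their part in Tff3 was not tested. Of 5 tested, 1 rose in males, Sox9 (0.95 ± 0.28, adjusted p = 0.0331), and 0 passed in females (1 at an unadjusted p under 0.05). Fam107b, the paralog of Fam107a, was at 0.91 ± 0.24 in females (adjusted p = 0.032) and 0.13 ± 0.24 in males (adjusted p = 0.757).

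Neighbouring genes were examined because Wfdc12 and Tff3 lie in clusters of related genes. Within 250 kb of the 7 genes' probes on mm7, 30 other genes were tested, and 4 were higher and 3 lower under dexamethasone in females and 4 higher and 5 lower in males. Over all genes, 6.79% were higher and 6.88% lower in females, and 10.4% were higher and 12.1% lower in males. Whether the neighbours as a set exceed these shares was not tested. Next to Fam107a, Acox2, a peroxisomal oxidase gene 69.3 kb away, rose by 1.36 ± 0.27 in females (limma adjusted p = 0.00904) and 0.97 ± 0.27 in males (adjusted p = 0.0261). Kctd6, 74.3 kb away, rose by 0.67 ± 0.14 in females (adjusted p = 0.0109) and 0.50 ± 0.14 in males (adjusted p = 0.0245). Near Tg, Ccn4 at 72.6 kb was at -1.28 ± 0.19 in females (adjusted p = 0.00267) and -1.56 ± 0.19 in males (adjusted p = 0.000594), while Phf20l1 at 207.2 kb rose by 1.11 ± 0.18 in females (adjusted p = 0.00381) and 1.81 ± 0.18 in males (adjusted p = 0.000226). None of the tested WAP genes beside Wfdc12 (Wfdc5, Wfdc15b and Slpi) and neither trefoil gene beside Tff3 passed in either sex.

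The glucocorticoid receptor binds DNA as a dimer on a pair of inverted half-sites, so promoter windows from RefSeq (GRCm38.p6, 250 bases before to 50 after each start) were searched on both strands for the half-site AGAACA, whose reverse complement is TGTTCT. Windows were found for 5 of the 7 genes, 7 windows in all. A downstream start of Fam107a, given as 2 nearly identical windows, held 2 half-sites, and the windows of Gad2, Wfdc12, Atp6v0a4 and Pcsk1 and the upstream start of Fam107a held 0. Over all 32851 windows 19% held at least 1 half-site and 2.54% at least 2. The full element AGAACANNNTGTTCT was in none of the 7 windows and in 3 windows of all. A match of letters is not evidence of binding, and the absence of one concerns these windows only. The 250 bases before the downstream start of Fam107a are shown because that gene had the largest bound and the only half-sites. They lie at chr14:8309780-8310029 on the minus strand of GRCm38.p6, with the 2 half-sites in capitals, 42 bases apart and ending 105 bases before the start.
Fam107a: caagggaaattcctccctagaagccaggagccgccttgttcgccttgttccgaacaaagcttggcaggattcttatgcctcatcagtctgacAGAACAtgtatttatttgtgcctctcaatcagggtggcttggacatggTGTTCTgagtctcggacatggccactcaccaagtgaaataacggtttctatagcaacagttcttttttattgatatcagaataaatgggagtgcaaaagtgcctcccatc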

How the data were processed

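The deposited scanner files hold intensities on a linear scale, made by the authors with Agilent Feature Extraction 9.5, per the submitters' processing notes. The processed signal used here is corrected for background and spatial trend on its own array, and near background holds surrogate values, per the file headers, and the series values equalled it for all 45018 spots. Control and outlier spots were left out, spots of a probe were averaged, log2 was taken of the deposited values, and each array's 75th percentile was subtracted. Probes entered the test if at least 1 group had them flagged above background throughout (3 arrays). Current symbols came from RefSeq (GRCm38.p6) by accession or synonym, and each gene was read by its brightest probe. A model with 4 group means was fitted to 12 arrays (8 residual degrees of freedom) in limma 3.58.1 under R 4.3.3, tested on simulated data, for 5 comparisons, with Benjamini-Hochberg adjustment over all genes; Python 3.11.15 and matplotlib 3.10.9 did the rest. The genes and lists were chosen with earlier results of these data known. Named were the 7 genes, the 3 most correlated genes of each with a usable symbol, the 10 genes with the largest bounds among those switched on, neighbours within 250 kb and members of fixed lists. Groups came from the labels, and the series' design text calls the samples biological replicates. Arrays were not treated as paired by replicate number in the main fit. Deviations from group means correlated at -0.216 to 0.326 over 18 same-numbered pairs and at -0.404 to 0.356 over 36 differently numbered pairs. With 3 arrays a group, this check cannot exclude a pairing. Some members of the lists are not reported here by name.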

Additional observations from a re-analysis of the deposited data

Results flagged for a closer look

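The effect of dexamethasone on Tg differed between the sexes in a test of the difference itself: the female effect minus the male effect was -3.90 ± 0.29 on the log2 scale (SE, limma adjusted p = 0.00112), with 3 of 3 female dexamethasone arrays below 3 of 3 male ones. The vehicle arrays of both sexes were below background for this probe, so the size is no measured fold. The call was lost on the gene's other probe (adjusted p = 0.324), for the mean of both probes (0.0975) and after normexp background correction (1).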

How the results depend on the processing

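With 3 arrays a group, arrays limit the precision, and a dim probe has only a bound. Over the 7 genes, 624 of 693 values under alternatives kept their direction and side of the threshold, or moved by less than the spread between replicates. Many of these effects could not move, as when the array left out was not compared or the gene has only 1 probe. The count therefore does not measure stability. Normexp background correction, which moved the median of all genes to 0.24 in females and 0.26 in males for dexamethasone against vehicle, ended all 5 calls of a sex difference under dexamethasone (Tg at -2.42, adjusted p = 0.0801), that of Tff3 under vehicle (-2.71, adjusted p = 0.0951) and the Tg difference of effects. It left 536 genes called for dexamethasone in females, 908 in males, 0 for the difference of effects, 59 for the sexes under dexamethasone and 88 under vehicle. Without a filter on dim probes, 2278 genes passed for the difference of effects, 2194 of them negative, against 1 as reported. For the sexes under dexamethasone 4233 genes then passed, 3280 of them lower in females, against 490 of 1123 as reported. The calls added with dim probes thus leaned to lower values in females, the direction of all 7 genes under dexamethasone. The reason for that lean was not tested. The mean of probes gave 0 for the difference of effects. Slide as a block gave 244 for the sexes under dexamethasone. Replicate block gave 703 there and 244 under vehicle, and among the 7 genes it ended the call of Tff3 under dexamethasone (adjusted p = 0.0652). Fitting only the arrays compared gave 1180 for females, 491 and 224 for the sexes under dexamethasone and vehicle, and ended the calls of Gad2, Pcsk1 and Tff3 under dexamethasone. Leaving out 1 array gave 1504 to 2568 for dexamethasone in females, 2342 to 5026 in males, 1 to 32 for the difference of effects (32 without female dexamethasone array 3), 455 to 1281 for the sexes under dexamethasone and 158 to 436 under vehicle; the counts as reported were 2644, 4359, 1, 1123 and 381. The relaxed flag rule gave 71 switched-on and 32 switched-off genes. Directions that turned were all of differences not called: Fam107a under dexamethasone (-1.26 to 0.11 without 1 array, positive without male dexamethasone array 2) and, under vehicle, Fam107a (-0.056), Gad2 (-0.22), Atp6v0a4 (-0.20) and Pcsk1 (-0.17) with normexp, Pcsk1 with quantile normalization (-0.00078) and its other probe (-0.13), Atp6v0a4 without 1 array (-0.13 to 0.25) and Wfdc12 without 1 array (-1.45 to 0.32, positive without female vehicle array 2). The cause was not tested.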

Other observations

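Some genes outside the 7 also had vehicle signal at or below background on most arrays, and their values are given here. Stmn2, a neuronal microtubule regulator, read -5.77, -4.95 and -1.35 on female dexamethasone arrays and -2.0, -0.92 and -2.16 on male ones, against -7.58, -7.39 and -8.44 on female vehicle arrays and -7.09, -6.26 and -6.30 on male ones, where arrays 2 and 3 were well above background. Dio2, which activates thyroid hormone, read -5.45, -4.93 and -0.48 in dexamethasone females and -2.70, -1.87 and -4.45 in dexamethasone males, against -6.62, -7.33 and -7.23 in vehicle females and -7.23, -5.77 and -6.84 in vehicle males, where array 2 was well above background. Both were highest among females on dexamethasone array 3, the array on which 6 of the 7 genes were highest.

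E230001N04Rik, second in the order of bounds, read -3.22, -2.74 and -2.41 in dexamethasone females and -1.43, -1.62 and -1.86 in dexamethasone males, with no overlap, against -8.27, -7.30 and -8.47 in vehicle females and -8.96, -8.61 and -6.80 in vehicle males. Cd28 read -4.11, -4.98 and -4.13 in dexamethasone females and -3.65, -3.49 and -2.54 in dexamethasone males, against -6.94, -7.84 and -7.46 in vehicle females and -8.03, -7.91 and -7.93 in vehicle males.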
